A study of Rattus norvegicus with 8 samples.

Results

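The genes that mark serotonergic neurons were examined in the *substantia nigra* (SN) of rats that received human α-synuclein. They comprise *Tph2* and *Tph1*, which encode the enzymes that start serotonin synthesis, the serotonin transporter *Slc6a4*, the transcription factor *Fev*, and the receptors *Htr1a*, *Htr1b* and *Htr5b*. The members were every probe, control features aside, whose RefSeq accession on the array belonged to 1 of these 7 genes, which gave 9 of the 45598 probes, and 7 of the 16678 genes that the accessions could name. Each was represented by 1 spot per array. A probe was tested where it was well above background on at least 1 array, which held for 8 of the 9 members and 33853 probes in all. The rule goes by gene names, and it was written with earlier results of these arrays known.

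Adult female Sprague-Dawley rats, 3 months old at surgery, received an injection on 1 side of the brain into the SN. The AAV-αSyn group received an adeno-associated virus of serotype AAV6 carrying wild-type human α-synuclein at 5.2e10 vg/µL (vector genomes per microlitre), and the AAV-Null group received the control vector AAV6-Null at 5.3e9 vg/µL. The titre differed between the vectors, so transgene and titre cannot be told apart. The promoter that drives the transgene is not given in the sources used here. At 20 weeks after surgery the injected SN was dissected, and its total RNA was labelled with Cy3 and hybridised to 1-colour Agilent arrays, 4 per group and 8 in all, where the methods give 3 per group. Surgery and serotype were shared by both groups, and uninjected tissue was not analysed here.

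Serotonin is made in neurons whose cell bodies lie in the raphe nuclei along the midline of the midbrain and hindbrain, and their axons reach the SN densely. Tryptophan hydroxylase, encoded by *Tph2* in the brain and by *Tph1* mainly in the pineal gland and gut, makes 5-hydroxytryptophan, which Ddc turns into serotonin. The transporter returns released serotonin to the neuron, *Fev* (also called *Pet1*) is an ETS-family factor that drives this gene programme, and *Htr1a* and *Htr1b* act as autoreceptors on the cell body and the axon terminal respectively. *Htr1a* and *Htr1b* are also used by many neurons that receive serotonin. *Htr5b* is a receptor found in few brain regions, among them the dorsal raphe.

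The arrays were alike in signal. Between 74.8% and 77.5% of spots per array were well above background, no spot was saturated, and the median processed intensity lay between 261 and 338 arbitrary units. The tissue label was checked by 7 markers of dopaminergic (DA) neurons, and all 7 were above background on all 8 arrays. The values below are log2 intensities after quantile normalization, which gives every array the same distribution, and a difference is the AAV-αSyn mean minus the AAV-Null mean. Differences were tested with limma, two-sided, and the Benjamini-Hochberg adjustment took in all 33853 probes. A single probe was also given an exact permutation test, for which 4 against 4 arrays allow no p under 0.0286. In dissected tissue, fewer or more cells of a type and less or more RNA per cell cannot be told apart.

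Promoter sequences are shown for *Tph2*, *Fev* and *Htr5b*, because the probes of these genes followed each other across the arrays. The RefSeq promoter table of the rat assembly GRCr8 holds 5 of the 7 genes, *Slc6a4* and *Htr1a* not being among them. Each run spans 250 bases before the transcript start and 50 bases from it. The *Tph2* window is chr7:52675590-52675889, the *Fev* window is chr9:83891669-83891968 and the *Htr5b* window is chr13:35252537-35252836, all on the minus strand. Capitals mark matches on either strand to GGAA, the core of ETS factors such as Fev, to GATAA of GATA factors, to TAATTA of LIM-homeodomain factors, and to the TATA box letters TATAAA.
Tph2: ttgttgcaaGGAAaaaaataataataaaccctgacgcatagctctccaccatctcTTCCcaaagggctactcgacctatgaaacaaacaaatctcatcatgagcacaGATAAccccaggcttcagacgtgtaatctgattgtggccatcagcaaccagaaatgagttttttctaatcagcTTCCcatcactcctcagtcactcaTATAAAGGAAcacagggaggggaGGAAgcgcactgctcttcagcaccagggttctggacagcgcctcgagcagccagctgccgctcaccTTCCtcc
Fev: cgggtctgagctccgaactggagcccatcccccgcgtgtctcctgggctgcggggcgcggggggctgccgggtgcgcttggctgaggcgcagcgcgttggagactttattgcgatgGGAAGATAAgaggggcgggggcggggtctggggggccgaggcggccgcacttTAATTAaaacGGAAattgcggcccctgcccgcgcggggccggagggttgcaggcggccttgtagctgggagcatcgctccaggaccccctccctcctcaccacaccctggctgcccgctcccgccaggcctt
Htr5b: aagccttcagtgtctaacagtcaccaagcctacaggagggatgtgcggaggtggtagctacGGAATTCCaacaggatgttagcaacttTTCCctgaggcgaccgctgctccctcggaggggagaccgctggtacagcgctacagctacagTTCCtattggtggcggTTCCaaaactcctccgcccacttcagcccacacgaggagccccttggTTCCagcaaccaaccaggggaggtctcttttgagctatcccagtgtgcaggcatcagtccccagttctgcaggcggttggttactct

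Counting from the first transcribed base as 0, *Tph2* holds TATAAA at -46 to -41, with a GGAA directly after it at -40, and GATAA at -143. *Fev* holds a GGAA at -134 that runs straight into a GATAA at -130, and a TAATTA at -82. *Htr5b* holds none of the 3 longer motifs. GGAA occurred 6 times in *Tph2*, 2 times in *Fev* and 6 times in *Htr5b*, but 95.8% of all 33469 promoters in the table hold it at least once. GATAA occurs in 26.5%, TATAAA in 14.2% and TAATTA in 5.36% of them. Of the 2 promoters not printed, *Htr1b* holds 6 GGAA and none of the longer motifs, and *Tph1* holds 2 GGAA and a TAATTA at -183. The matches are letters in a window, and binding was not measured.

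*Tph2*, *Slc6a4*, *Fev* and *Htr5b* had higher means in the AAV-αSyn group, whereas *Tph1*, *Htr1a* and *Htr1b* stood within 0.25 log2 units of the AAV-Null means. None of the 8 tested member probes passed the adjustment, against 0.0148% of all probes (5 of 33853). At an unadjusted p under 0.05, 3 of the 8 member probes were higher in the AAV-αSyn group, against 3.31% of all probes, and 0 were lower, against 2.32%. The median difference of the 8 was 0.50, beside 0.01 over all probes, and 7 of the 8 differences were above 0, as were 52.4% of all. The central 95% of all differences ran from -0.48 to 0.46, and those of *Tph2*, *Slc6a4*, *Fev* and *Htr5b* lay outside it, although that of *Fev* rests on a probe at background on 3 AAV-Null arrays. No member had all arrays of one group above all arrays of the other, a separation that 2.57% of probes showed with AAV-αSyn higher and 1.26% with AAV-Null higher.

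**Figure D1:**
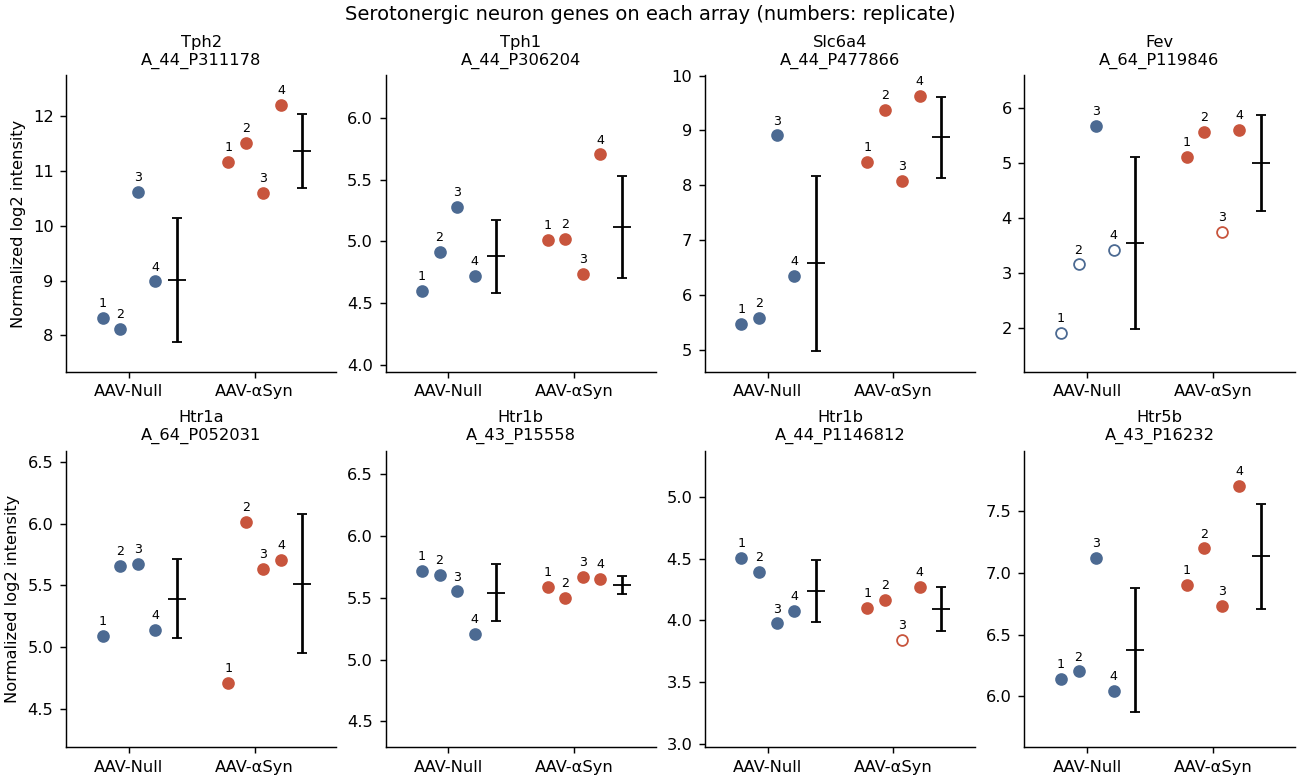
Normalized log2 intensity of each tested member probe on each array (points, numbered by replicate; open points were not well above background), with the mean and SD of the 4 arrays per group (bars). The vertical range is wider in the panels of *Tph2*, *Slc6a4* and *Fev* than in the others. AAV-Null replicate 3 stands among the AAV-αSyn arrays for *Tph2*, *Slc6a4* and *Htr5b* and just above all of them for *Fev*.

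*Tph2*, the neuronal tryptophan hydroxylase, was read by probe A_44_P311178 (transcript NM_173839). Across the AAV-Null arrays, in the order of replicates 1 to 4, its level was 8.32, 8.12, 10.61 and 8.99. Across the AAV-αSyn arrays, in the same order as everywhere below, its level was 11.16, 11.51, 10.59 and 12.20. AAV-αSyn replicates 1, 2 and 4 exceeded every AAV-Null array, and AAV-Null replicate 3 stood just above AAV-αSyn replicate 3, the only overlap between the groups. Before normalization the same 2 arrays read 1461 and 1498 arbitrary units, in the reverse order. The means were 9.01 ± 1.13 and 11.36 ± 0.67 (SD, n = 4), a difference of 2.35 (SE 0.57, 95% interval 1.04 to 3.66), or 5.11-fold. The unadjusted limma p was 0.00318, the adjusted p was 0.6 and the exact permutation p was 0.0571. The difference ranked 13th from the top among all probes by size, and 174th by p.

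*Tph1*, the peripheral and pineal form of the enzyme, had 2 probes. Probe A_44_P306204 measured 4.60, 4.91, 5.28 and 4.72 on the AAV-Null arrays and 5.01, 5.02, 4.74 and 5.71 on the AAV-αSyn arrays. The arrays of the groups were interleaved, although AAV-Null replicate 3 and AAV-αSyn replicate 4 were again the highest of their groups. The difference was 0.24 (SE 0.23, 95% interval -0.28 to 0.76, limma adjusted p = 0.972, exact permutation p = 0.4). Probe A_64_P048210 was not well above background on any of the 8 arrays and gives no difference.

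*Slc6a4*, the serotonin transporter, measured 5.48, 5.58, 8.91 and 6.34 in the AAV-Null group (probe A_44_P477866, NM_013034). It measured 8.43, 9.37, 8.08 and 9.63 in the AAV-αSyn group. AAV-Null replicate 3 again stood inside the AAV-αSyn group, above its replicates 1 and 3, and the other 3 AAV-Null arrays were below every AAV-αSyn array. The means were 6.58 ± 1.60 and 8.88 ± 0.74 (SD, n = 4). The difference of 2.30 (SE 0.76, 95% interval 0.55 to 4.05), or 4.92-fold, ranked 14th by size among all probes, next to *Tph2*. The unadjusted limma p was 0.0162, the adjusted p was 0.76 and the exact permutation p was 0.0857.

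*Fev*, the ETS factor of serotonergic neurons, was dim (probe A_64_P119846, NM_144753). It measured 1.92, 3.16, 5.68 and 3.43 in the AAV-Null group, of which replicate 3 alone was well above background. It measured 5.11, 5.57, 3.75 and 5.61 in the AAV-αSyn group, and all but replicate 3 were well above background. The highest array of all 8 was therefore an AAV-Null array, and the arrays at background carry no reliable order. The means were 3.54 ± 1.57 and 5.01 ± 0.87 (SD, n = 4), with a difference of 1.47 (SE 0.77) whose 95% interval, -0.31 to 3.25, includes 0. With normexp, another background correction, and an offset of 50 added to each intensity, the difference was 0.25. The limma adjusted p was 0.926 and the exact permutation p was 0.171.

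*Htr5b* measured 6.14, 6.20, 7.12 and 6.05 in the AAV-Null group and 6.90, 7.20, 6.73 and 7.70 in the AAV-αSyn group (probe A_43_P16232, NM_024395). AAV-Null replicates 1, 2 and 4 lay close together below all AAV-αSyn arrays, and replicate 3 lay among the latter. The means were 6.38 ± 0.50 and 7.13 ± 0.43 (SD, n = 4), a difference of 0.76 (SE 0.29, 95% interval 0.09 to 1.42), or 1.69-fold. The unadjusted limma p was 0.0299, the adjusted p was 0.835 and the exact permutation p was 0.0857. Blocking on replicate number gave an unadjusted limma p of 0.0742, which leaves *Tph2* and *Slc6a4* as the 2 member probes under 0.05.

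In the autoreceptor genes, AAV-Null replicates 1, 2 and 4 did not all lie below the AAV-αSyn arrays. *Htr1a*, which slows the firing of serotonergic neurons, measured 5.09, 5.66, 5.67 and 5.14 on the AAV-Null arrays and 4.71, 6.01, 5.63 and 5.70 on the AAV-αSyn arrays. AAV-αSyn arrays were both the lowest and the highest of the 8, and the difference was 0.12 (SE 0.28, 95% interval -0.53 to 0.78, limma adjusted p = 0.987). *Htr1b*, which limits serotonin release at the terminal, had 2 probes with differences of opposite sign. Probe A_43_P15558 measured 5.21 to 5.72 on the AAV-Null arrays and 5.50 to 5.67 on the AAV-αSyn arrays, a difference of 0.06 (SE 0.12, 95% interval -0.22 to 0.34, limma adjusted p = 0.986). Probe A_44_P1146812, placed on the transcript XR_356450, measured 3.97 to 4.51 and 3.84 to 4.27, a difference of -0.14 (SE 0.15, 95% interval -0.48 to 0.19, limma adjusted p = 0.973). It was above background on 4 AAV-Null and 3 AAV-αSyn arrays. The 95% intervals of these 3 probes and of *Tph1* all ended below 1 log2 unit, under the lower bound of *Tph2*.

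**Figure D2:**
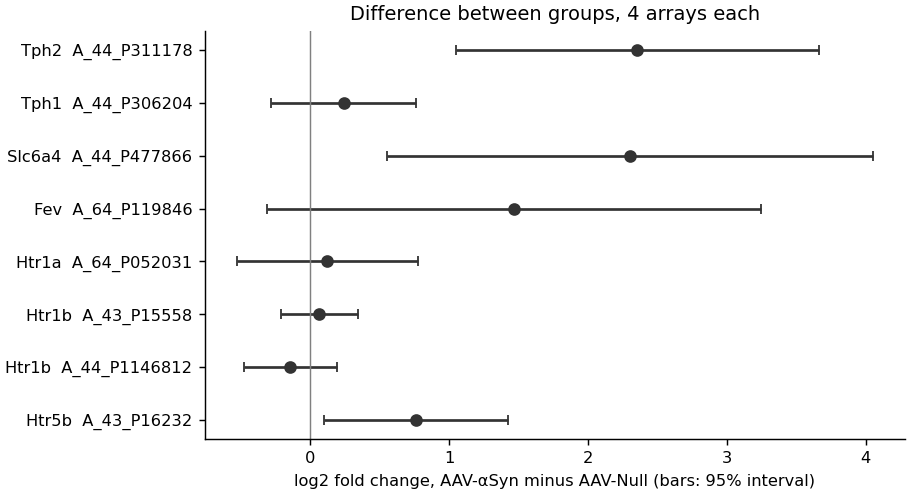
Difference in log2 intensity between the groups for the 8 tested member probes (points, AAV-αSyn minus AAV-Null, 4 arrays each) with 95% intervals from limma (bars). The intervals of *Tph2*, *Slc6a4* and *Htr5b* lie above 0 and the other 5 include it.

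Array by array, *Slc6a4* and *Htr5b* followed *Tph2*, and so did *Fev* as far as its dim probe, not above background on 4 of the 8 arrays, allows. Over the 8 arrays, the Pearson correlation with *Tph2* was 0.979 for *Slc6a4* (Spearman 0.952), 0.94 for *Htr5b* (0.881) and 0.885 for *Fev* (0.833). These ranked 2nd, 17th and 110th among 33835 other probes. With each group's mean removed, the correlations were 0.976, 0.911 and 0.908, so the likeness was present among arrays of the same group. Without the 2 arrays farthest from the *Tph2* median, AAV-Null replicates 1 and 2, they were 0.945, 0.952 and 0.787. Over all 8 arrays, *Tph1* had a correlation of 0.715 and *Htr1a* of 0.287, and the *Htr1b* probes A_43_P15558 and A_44_P1146812 had 0.02 and -0.46. Without the same 2 arrays these were 0.739, 0.376, 0.784 and 0.511, so over the 6 remaining arrays the first *Htr1b* probe was as like *Tph2* as *Fev* was. These are descriptions over 8 arrays of 1 slide, and no p is given.

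**Figure D3:**
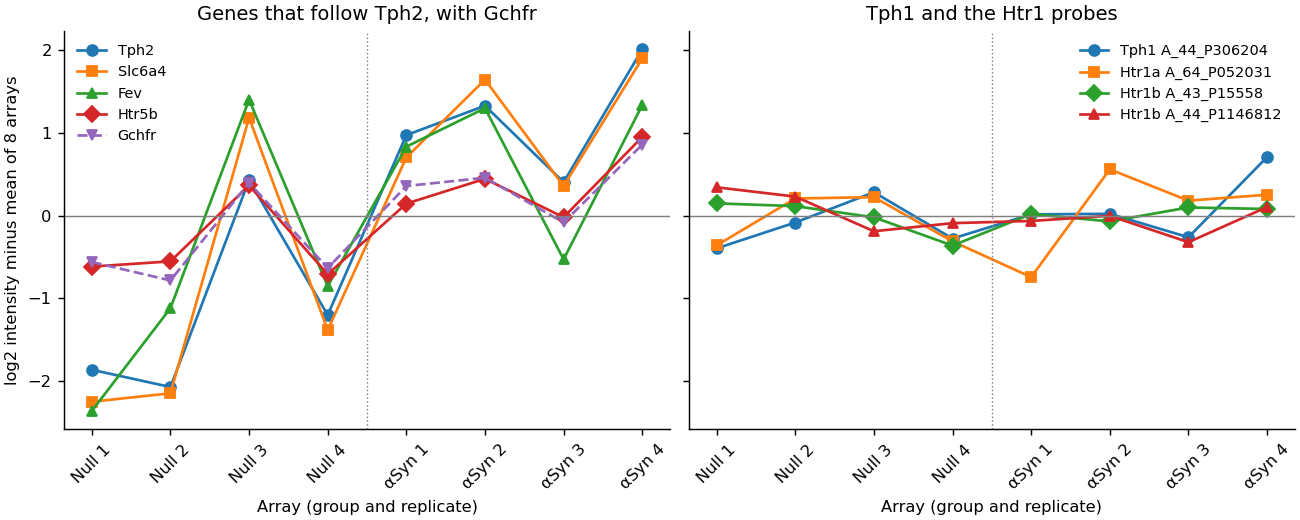
Log2 intensity on each array minus the probe's own mean over the 8 arrays, for *Tph2*, *Slc6a4*, *Fev*, *Htr5b* and *Gchfr* (left) and for *Tph1*, *Htr1a* and the *Htr1b* probes (right). On the left every line is high on AAV-Null replicate 3 compared with the other AAV-Null arrays and is lowest of its group on AAV-αSyn replicate 3.

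Among 13647 genes with a symbol, each by its brightest probe, the 10 most like *Tph2* were *Slc6a4*, *Fut2* (0.979), *Cryba2* (0.972), *Ckmt2* (0.971), *Gchfr* (0.965), *Hmx2* (0.964), *Acss2* (0.952), *Kcnh2* (0.942), *Htr5b* and *Gal* (0.934). *Fut2* was above background on 1 AAV-Null and 3 AAV-αSyn arrays and *Hmx2* on 1 and 4, so their places rest partly on background readings. Of the members, *Slc6a4* and *Htr5b* were thus among them. *Cryba2*, a lens crystallin gene, put the 8 arrays in exactly the same order as *Tph2* (Spearman 1), and its neighbour in the GRCr8 gene order is *Fev*. *Cryba2* measured 4.61, 3.86, 6.96 and 5.07 on the AAV-Null arrays and 6.99, 7.50, 5.96 and 7.58 on the AAV-αSyn arrays. *Gchfr* encodes the feedback regulator of GTP cyclohydrolase, the enzyme that begins the synthesis of the cofactor tetrahydrobiopterin. *Gchfr* measured 11.20, 10.97, 12.15 and 11.12, then 12.11, 12.21, 11.67 and 12.61. *Gal*, the precursor of the neuropeptide galanin, differed by 0.94 between the groups (limma adjusted p = 0.835). All 10 were chosen for following *Tph2*, so their differences between the groups are not independent of it.

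AAV-Null replicate 3 set much of the spread in the AAV-Null group, and each array was left out in turn. Without AAV-Null replicate 3, the differences were 2.90 for *Tph2* (limma adjusted p = 0.294), 3.09 for *Slc6a4* (0.294), 2.18 for *Fev* (0.52) and 1.01 for *Htr5b* (0.47). Leaving out any other array gave 2.06 to 2.62 for *Tph2*. *Fev* was 0.92 without AAV-Null replicate 1. The unadjusted limma p of *Tph2* and *Slc6a4* stayed under 0.05 whichever 1 array was left out. With 3 arrays per group, in all 16 ways, that of *Tph2* was under 0.05 in 16 and that of *Slc6a4* in 7. That of *Htr5b* was over 0.05 without AAV-Null replicate 1, 2 or 4 or AAV-αSyn replicate 2 or 4 (0.0609 to 0.0796), and that of *Fev* was under 0.05 only without AAV-Null replicate 3 or AAV-αSyn replicate 3 (0.00621 and 0.0463).

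**Figure D4:**
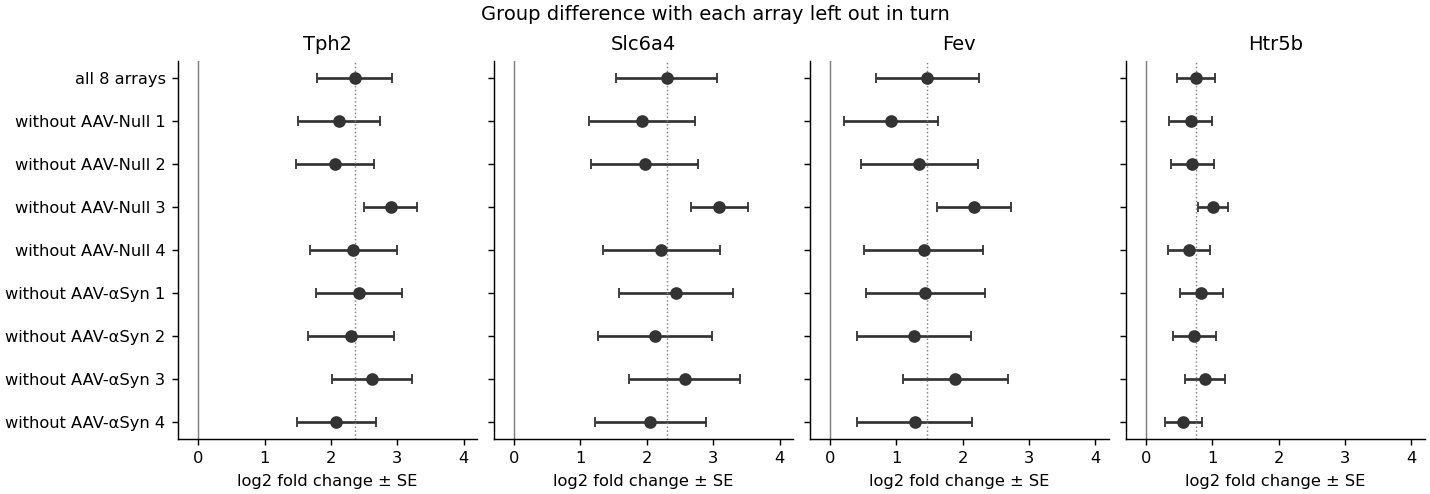
Difference in log2 intensity between the groups, AAV-αSyn minus AAV-Null, over all 8 arrays and with each array left out in turn (points, bars give the SE; dotted line, value over all arrays). All values are above 0, and those without AAV-Null replicate 3 are the largest for each of the 4 genes.

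All arrays were on 1 slide, in 2 columns with 2 arrays of each group per column. Within the columns, *Tph2* differed by 2.32 and 2.38, *Slc6a4* by 2.29 and 2.30, *Htr5b* by 0.69 and 0.82, and *Fev* by 1.14 and 1.80. *Htr1a* differed by -0.23 in one column and 0.47 in the other. The rows of the slide coincide with the replicate numbers and hold 1 array of each group. *Tph2* differed by 2.83, 3.40, -0.02 and 3.21 in rows 1 to 4, and *Slc6a4* by 2.95, 3.79, -0.82 and 3.28. *Fev* differed by 3.19, 2.42, -1.93 and 2.19, and *Htr5b* by -0.39 in row 3 and by 0.76 to 1.66 in the others. The row holding AAV-Null replicate 3 was the exception for all 4 genes.

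Other genes of serotonin handling were read from lists, each gene by its brightest tested probe. Of 14 genes of synthesis, cofactor supply, storage and breakdown, 2 were higher and 1 was lower in the AAV-αSyn group at an unadjusted p under 0.05, as 3.31% and 2.32% of all probes were, and 0 passed the adjustment. The median difference of the 14 was 0.13. *Gchfr*, which was picked above for following *Tph2*, was higher by 0.79 (limma adjusted p = 0.83) and *Maob*, a monoamine oxidase, by 0.20 (limma adjusted p = 0.868). *Ddc*, the decarboxylase shared by serotonin and dopamine synthesis, had a difference of -0.25 (limma adjusted p = 0.835), and the vesicular transporter *Slc18a2*, which DA neurons also use, differed by -0.29 (limma adjusted p = 0.91). *Slc22a3*, a low-affinity monoamine transporter, differed by 0.43 (limma adjusted p = 0.961).

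Transcription factors that act with *Fev* were listed as 8 genes, of which 6 had a named probe and were tested. None had an unadjusted p under 0.05 in either direction, and their median difference was 0.00. *En2* differed by 0.32, *Gata3* by 0.15, *Nkx2-2* by -0.19 and *Lmx1b*, which DA neurons also express, by -0.28. Of the 11 other serotonin receptors, 10 were tested, 0 had an unadjusted p under 0.05 and the median difference was 0.04. *Htr2a* differed by -0.25, *Htr1d* by 0.24 and *Htr3a* by -0.22. *Htr1f* differed by 0.25 but was above background on 1 AAV-Null and 3 AAV-αSyn arrays, and *Htr3b* was not above background on any array. Of 5 further genes used by raphe neurons, all differences were above 0, as were 52.4% over all probes, with a median of 0.37, and *Met*, the hepatocyte growth factor receptor, differed by 0.50 (limma adjusted p = 0.751) and was the 1 gene of the 5 with an unadjusted p under 0.05, a p that 3.31% of all probes reached in that direction. *Trh*, the thyrotropin-releasing hormone precursor, differed by 0.37. *Slc17a8*, a vesicular glutamate transporter, differed by 0.53 but was above background on 1 AAV-Null and 3 AAV-αSyn arrays.

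Markers of other cells and neighbouring regions also had unequal means in the groups. All 7 DA markers had lower means in the AAV-αSyn group, with a median difference of -0.38. Of these, *Slc6a3* (-0.79), *Pitx3* (-0.78), *Th* (-0.52) and *Drd2* (-0.33) had an unadjusted p under 0.05, as 2.32% of all probes did in that direction, and 0 passed the adjustment (limma adjusted p = 0.484 to 0.747 for the 4). The summed intensity of the 7, which is weighted towards *Th* as the brightest, was 125000 to 160800 on the AAV-Null and 96770 to 103800 on the AAV-αSyn arrays. All 4 thalamic markers had lower means, with a median of -1.16. *Prkcd* (-1.56, limma adjusted p = 0.785) and *Gbx2* (group means 10.44 and 8.44, limma adjusted p = 0.876) had an unadjusted p under 0.05, and the list had sums of 4219 to 15920 and 2001 to 5060. All 3 tested interpeduncular markers had lower means, with a median of -0.77. *Chrna3* (-0.77, limma adjusted p = 0.642) and *Chrna5* (-0.81, limma adjusted p = 0.821) had an unadjusted p under 0.05, and the list had sums of 2239 to 3034 and 1713 to 2386.

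In the opposite direction, the glycine transporter *Slc6a5* of hindbrain neurons was higher by 1.28 and passed the adjustment (limma adjusted p = 0.0424). That call was lost with the replicate number, which is the slide row, as a block (limma adjusted p = 0.396). It held in 8 of 13 processing settings (adjusted p 0.00823 to 0.396), in 1 of the 8 omissions of 1 array, that of AAV-αSyn replicate 2, and in 0 of the 16 omissions of 1 array per group. *Glra1*, the other gene of the glycinergic list, differed by 0.06 (limma adjusted p = 0.991), and its arrays overlapped between the groups. The pair summed to 426 to 532.1 on the AAV-Null and 726.4 to 1046 on the AAV-αSyn arrays, a separation that *Slc6a5* alone showed. All 3 cholinergic markers had higher means. *Slc5a7* (1.43, limma adjusted p = 0.701) had an unadjusted p under 0.05, as 3.31% of all probes did in that direction, *Chat* stood at 1.22 and *Slc18a3* at 0.48, and the list had sums of 690.7 to 2811 and 2721 to 5656. *Hoxa2*, a hindbrain *Hox* gene above background on 3 AAV-Null and 4 AAV-αSyn arrays, was higher by 0.86 at an unadjusted p under 0.05, and *Hoxd3* differed by -0.06. *Hoxa4*, *Hoxb3* and *Hoxb5* were tested only because they were above background on 2, 2 and 1 AAV-αSyn arrays, against 0 AAV-Null arrays, so no difference is read from them. *Dbh*, which makes noradrenaline, was above background on 0 of 4 AAV-Null and 3 of 4 AAV-αSyn arrays. It was thus also tested only through the AAV-αSyn arrays, and no difference is read from it. The noradrenaline transporter *Slc6a2* differed by -0.39 and was above background on 2 AAV-Null arrays and 1 AAV-αSyn array. Markers of choroid plexus (6 genes), blood (4), astrocytes (3), microglia (3) and oligodendrocytes (3) had 0 genes with an unadjusted limma p under 0.05. The choroid plexus sum was 5862 on AAV-αSyn replicate 2, where *Ttr*, the thyroid hormone carrier transthyretin, stood at 12.33, and 715 to 1141 on the other 7 arrays. The summed oligodendrocyte level was nonetheless 300000 to 310700 on the AAV-Null and 320900 to 360700 on the AAV-αSyn arrays, without overlap.

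**Figure D5:**
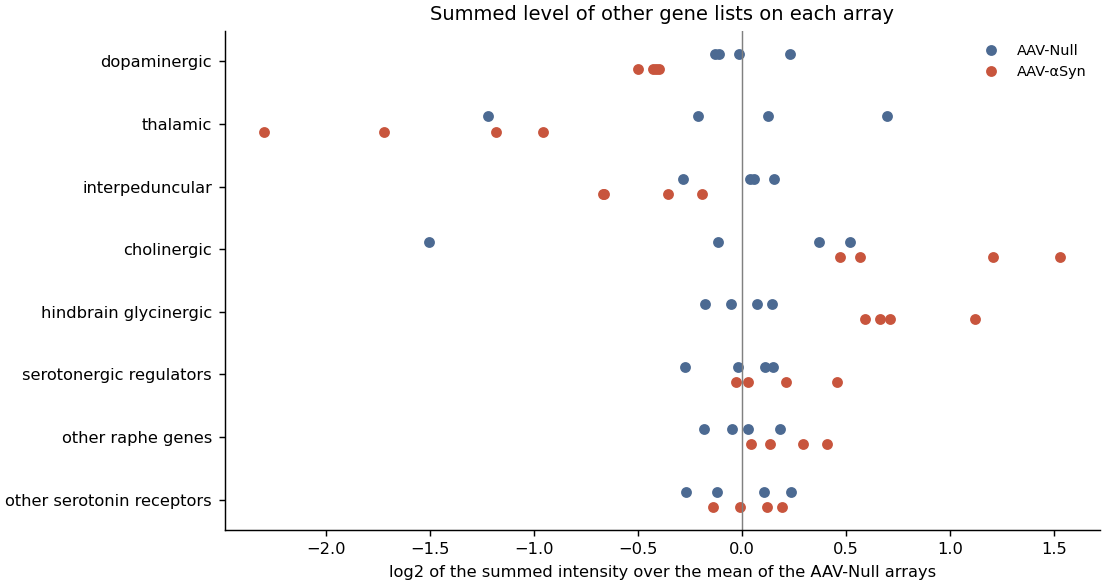
Summed linear intensity of each list of other genes on each array (points), as log2 of its ratio to the mean of the 4 AAV-Null arrays. Of the 8 lists drawn, the sums of the DA and hindbrain glycinergic lists separate the groups. Those of serotonergic regulators and of other serotonin receptors do not. A sum is weighted towards its brightest genes. Of the single DA genes, *Th*, the brightest, and *Drd2* separate the groups and the others overlap. In the glycinergic list *Slc6a5* separates the groups and *Glra1* does not.

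Array by array, the cholinergic sums were 2536, 690.7, 2811 and 1813 in the AAV-Null group and 4528, 2721, 2911 and 5656 in the AAV-αSyn group. They were lowest on AAV-Null replicate 2 and highest on AAV-αSyn replicate 4, as *Tph2* was, but AAV-αSyn replicate 2, the second highest array for *Tph2*, had the lowest sum of its group. AAV-Null replicate 3 had the highest thalamic sum of all 8 arrays (15919). Its glycinergic sum of 506.9 was below those of the AAV-αSyn arrays (726.4 to 1046). The part of dissection, of regional markers or of α-synuclein in the differences of the serotonergic genes was not tested.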

How the data were processed

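Scanner files of 8 arrays, 4 per group, were used. Per the file headers, the authors' processed intensity values are in arbitrary units, with background removed by Feature Extraction and no scaling between arrays. The headers give Feature Extraction 12.0.3.2 and the submitters' processing notes 11.5.1.1. The authors also deposited a matrix of quantile-normalized log2 values, used here as an alternative. The deposited files name no array depth, so precision rests on the number of arrays.

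With R 4.3.3 and limma 3.58.1, processed intensities were taken to log2, leaving out 4259 control features and outlier spots. Probes well above background on at least 0.5 of their spots on at least 1 array were kept. After quantile normalization and averaging of replicate spots, lmFit and eBayes without a trend compared the groups. Of 45598 probes, 11745 were left out as dim. RefSeq accessions gave symbols for 21229 probes (GRCr8 table). Coordinates are those of that table. Groups came from the labels, and the methods describe the arrays as biological replicates. The steps were tested on simulated data. Every member probe is named. From the other lists, the genes with an unadjusted p under 0.05 and up to 4 others with the largest absolute difference could be named, each by its brightest tested probe. The members and lists were chosen with earlier results of these data known. The alternatives comprised 3 scalings or background corrections, 3 filters on dim probes, the deposited matrix, 3 variance models, 2 blocks and leaving out arrays. A filter applied after normalization was added after seeing the data.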

Additional observations from a re-analysis of the deposited data

Results flagged for a closer look

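*Htr5b* on AAV-Null replicate 3 stood apart from the other 3 AAV-Null arrays, at 7.12 against 6.05 to 6.20. The gap to the nearest array made up 0.855 of the range of the group, above Dixon's 95% critical value for 4 samples. Of 18 groups of 4 arrays examined in this way, this was the 1 that exceeded it, and chance alone is set to exceed it in about 1 group in 20. *Tph2*, *Slc6a4* and *Fev* were also highest of their group on that array.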

How the results depend on the processing

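No member probe passed the adjustment in any of the 37 settings. *Tph2* and *Slc6a4* were higher in the AAV-αSyn group in all of them. Over 13 processing settings *Tph2* ranged from 2.17 to 2.98 (limma adjusted p = 0.103 to 0.659) and *Slc6a4* from 1.67 to 3.10. *Fev*, which was near background, was 0.25 with normexp, a background correction run here with an added offset of 50, which compresses dim probes. *Fev* was not tested where all 8 arrays had to be above background. *Htr5b* ranged from 0.47 to 0.92. The *Htr1b* probe A_43_P15558 turned to -0.016 with normexp and -0.031 with array weights. The number of member probes whose groups did not overlap was 1 with normexp (*Tph2*), where 3.75% of all probes had no overlap. Array weights, which weigh down divergent arrays, gave 10 probes past the adjustment, 4503 with an unadjusted p under 0.05 and 5 such member probes, 4 of them higher and the *Htr1b* probe A_44_P1146812 lower (-0.29). With the side of the slide as a block 3 probes passed the adjustment. With the replicate number as a block (replicate block) 0 did, 2218 had an unadjusted p under 0.05, and *Tph2* had a limma adjusted p of 0.658. Same-numbered arrays, which share a slide row, deviated together with correlations of -0.00217 to 0.267. By the rule set beforehand, they were pairs only if all 4 exceeded 0.1, and 2 did not. Not every array correlated best with its own number. The numbers were therefore not taken as pairs, although so few arrays cannot exclude a pairing.

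Leaving out 1 array, or 1 of each group, gave 1 to 6 probes past the adjustment, 1108 to 2800 with an unadjusted p under 0.05, 1 to 5 such member probes in either direction, and 0 to 5 member probes without overlap, where 5.3% to 10.5% of all probes had none with 1 array left out and 7.34% to 16.2% with 1 of each group left out. With 1 of each group left out the difference ranged from 1.69 to 3.37 for *Slc6a4* (unadjusted limma p up to 0.098, an adjusted p of 0.268 to 1), from 0.73 to 2.60 for *Fev* and from 0.46 to 1.15 for *Htr5b*. Over both kinds of omission it ranged from 1.78 to 3.16 for *Tph2*, -0.049 to 0.50 for *Tph1*, -0.14 to 0.48 for *Htr1a*, -0.071 to 0.15 for *Htr1b* probe A_43_P15558 and -0.29 to 0.029 for A_44_P1146812. The cause of these shifts was not tested. The small number of arrays and the dim signal of *Fev* limit what can be called.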
